A study of Mus musculus with 34 samples.

Results

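Oxidative phosphorylation is the set of protein complexes in the inner mitochondrial membrane that turn electrons from food into ATP. The genes described here are its subunits, chosen by name. They are the genes whose symbol starts with Nduf, Uqcr, Atp5, or Cox followed by 4, 5, 6, 7 or 8, the genes Sdha, Sdhb, Sdhc and Sdhd, and the 13 protein genes of mitochondrial DNA. This gave 107 of the 24475 gene identifiers in the table, 94 in the nucleus and 13 on the mitochondrial chromosome. Of the 94 nuclear genes, 39 belong to complex I, 8 are assembly factors of complex I (Ndufaf), 4 make complex II, 8 complex III, 18 complex IV and 17 complex V. The 39 include Ndufs5-ps, a pseudogene. The rule itself used no measured value, but it was set with earlier results of these data known.

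Complex I takes electrons from NADH and complex II from succinate, complex III passes them through cytochrome c to complex IV, and complex IV gives them to oxygen. Complexes I, III and IV pump protons, and complex V lets the protons flow back and makes ATP. Complex II is built only from nuclear genes. The other complexes join nuclear subunits, which are imported, to a core made inside the mitochondrion: ND1 to ND6 and ND4L for complex I, CYTB for complex III, COX1 to COX3 for complex IV, and ATP6 and ATP8 for complex V. The mitochondrial genes are copied as long transcripts, 1 from each strand, that are later cut into single RNAs, and ND6 is the only protein gene on the light strand. In macrophages the balance between respiration and glycolysis is known to shift with activation.

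RNA of sorted monocytes and macrophages from C57/Bl6 mice was sequenced in 34 libraries of 9 groups. The mice carried tumors of MC38, a colon adenocarcinoma line, or LLC, the Lewis lung carcinoma line. The groups of 4 libraries each from mice were TuMon1 (Ly6C+ CD88+ Sca1+ monocytes of MC38 tumors), TuMon2 (Ly6C+ CD88+ Sca1- monocytes of LLC tumors), macrophages of MC38 tumors, macrophages of LLC tumors, and Ly6C+ spleen monocytes of mice with each tumor. The groups from culture came from bone marrow Ly6C+ monocytes: 4 untreated control libraries, 3 given LLC supernatant, whose label calls them Sca1-, and 3 given MC38 supernatant, whose label calls them Sca1+. No genotype, transgene, age or time was given, and each monocyte subset came from only 1 tumor line, so subset and line cannot be told apart. The labels do not say whether replicates came from separate animals or cultures; p-values below therefore measure only the spread between these libraries.

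Library totals ran from 13047724 to 26966603 estimated counts, and levels are given as CPM (counts scaled to the library total), scaled with TMM. Libraries from mice and from culture were scaled and tested apart and are not compared with each other. A gene was called when edgeR's quasi-likelihood test gave a Benjamini-Hochberg adjusted p under 0.05 over all 13200 genes tested in vivo or 12603 in culture. The labels were checked against marker genes: 8 macrophage markers summed to 13585 CPM in MC38 and 9342 CPM in LLC macrophages, against 1941 and 1815 CPM in the spleen monocytes. Transcripts of other tissues marked 5 libraries. White fat markers summed to 5350, 5025 and 8654 CPM in replicates 1, 2 and 3 of the MC38 spleen monocytes and to 2.91 CPM in replicate 4. Fibroblast markers reached 2889 CPM in replicate 3 of the MC38 supernatant cells, and heart and skeletal muscle markers 252 CPM in replicate 2 of the control culture. Macrophage replicate 4 from MC38 tumors stood apart by its mitochondrial RNA. Some results of the member genes that rest on these libraries are also given without them. The others, and those of other gene lists, are given only with them.

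Of the 94 nuclear genes, 90 passed the filter on low counts, in both the mouse and the culture libraries. The others were Cox8c, which had no counts in any library, Cox7b2, whose highest level was 0.264 CPM, Cox8b, whose highest was 1.5 CPM, and Ndufs5. Reads of Ndufs5 were placed almost wholly on its pseudogene: Ndufs5 held at most 6.04% of the pair in any library, so the pair is best read as a sum. All 13 mitochondrial genes passed. ATP8 overlaps ATP6, ND4L overlaps ND4 and ND5 overlaps ND6, and the strand used for counting was not given, so single values of these pairs are uncertain. The deposited counts of ATP6, ATP8 and 5 nuclear genes (Ndufa7, Ndufs5, Ndufaf7, Cox7c and Atp5j2) were not whole numbers in 34 of 34 libraries, which is what shared reads give.

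The 2 genomes of the respiratory chain differed in how much they varied. On the TMM scale the nuclear genes summed, in the groups from mice, to 6273 ± 431 CPM in MC38 spleen monocytes (SD, n = 4), 6279 ± 284 in TuMon1, 6418 ± 755 in LLC macrophages, 6639 ± 285 in TuMon2, 6779 ± 181 in LLC spleen monocytes and 7169 ± 594 in MC38 macrophages. No neighbours in that order lay farther apart than the larger of their SDs. Before TMM scaling the order was another: the nuclear genes held 0.562% and 0.567% of library counts on average in TuMon1 and TuMon2, 0.665% in LLC and 0.766% in MC38 macrophages, and 0.704% and 0.712% in LLC and MC38 spleen monocytes. Every spleen library, from 0.603%, then lay above every tumor monocyte library, up to 0.593%. The 13 mitochondrial genes spread much more. They summed to 11979.9 ± 2426 CPM in TuMon1, 13312 ± 1352 in LLC spleen monocytes, 15987 ± 1425 in TuMon2, 16086 ± 2450 in MC38 spleen monocytes, 25320 ± 15672 in MC38 macrophages and 34116 ± 7584 in LLC macrophages.

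The large SD of the MC38 macrophages came from 1 library. Their mitochondrial sums were 17313, 15760, 19494 and 48715 CPM, all above every TuMon1 library. The sums of 17313 and 15760 CPM lay within the range of TuMon2 (14823 to 17888 CPM). In the LLC macrophages the sums were 34072, 44470, 31429 and 26493 CPM, all above every monocyte library. Before scaling, the mitochondrial genes held 1.07% of library counts on average in TuMon1 and 3.54% in LLC macrophages.

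In culture the mitochondrial sum of the control cells was 14967, 11346, 14337 and 16548 CPM. It was 7687, 7186 and 6705 CPM after LLC supernatant and 5267, 4037 and 8091 CPM after MC38 supernatant, so every control library lay above every treated one. The nuclear sum went from 7433 ± 429 CPM in control (SD, n = 4) to 7001 ± 77.9 (n = 3) and 6295 ± 181 CPM (n = 3), and its control replicate 2, at 6790 CPM, lay below the LLC supernatant libraries. Divided by the nuclear sum, the mitochondrial sum was 1.92 ± 0.205 in control, 1.03 ± 0.071 after LLC supernatant and 0.917 ± 0.308 after MC38 supernatant. From mice the same ratio ran from 1.90 ± 0.298 in TuMon1 to 5.48 ± 1.98 in LLC macrophages. In bulk RNA a change in the mix of cells and a change in RNA per cell cannot be told apart, and this holds for all values here.

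**Figure D1:**
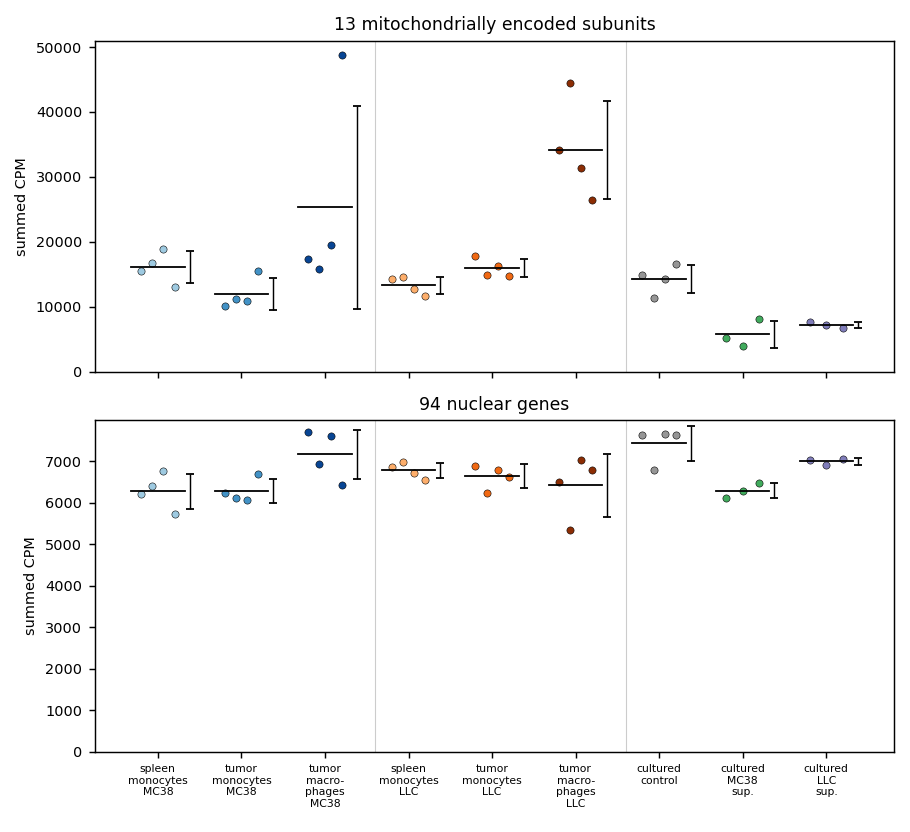
Summed CPM of the 94 nuclear and the 13 mitochondrial genes in each library (dots) of the 9 groups, with the mean (line) and SD (bar). Nuclear group means lie between 6273 and 7433 CPM, while mitochondrial means lie between 5798 and 34116 CPM, and 1 MC38 macrophage library stands at 48715 CPM.

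The mitochondrial genes were higher in tumor macrophages than in the monocytes of the same tumor. All 13 passed the test in each tumor, where 24.8% (MC38) and 29.2% (LLC) of all genes tested were called higher. Their median log2 difference was 1.29 in MC38 (range 0.93 to 1.62) and 1.13 in LLC (0.88 to 1.58), against -0.02 and 0.06 for all genes. No mitochondrial gene was called as differing between the tumors in this step. The test of that difference called 0 of 13, with 0 at an unadjusted p under 0.05 in edgeR and 0 in DESeq2.

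COX1, at MT:5328-6872 in GRCm38, encodes the catalytic core of complex IV. It stood at 4698, 5079, 4879 and 6927 CPM in TuMon1 and at 7782, 7207, 8177 and 18022 CPM in MC38 macrophages. In LLC it was at 7252, 6241, 6613 and 6220 CPM in TuMon2 and at 12954, 16178, 12805 and 10800.5 CPM in macrophages. The groups did not overlap in either tumor. The log2 difference was 0.93 ± 0.22 (SE; edgeR adjusted p = 0.00126) in MC38 and 1.0 ± 0.22 (adjusted p = 0.000616) in LLC.

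ATP6, a proton channel subunit of complex V, showed how far the MC38 result leaned on 1 library. Its levels were 1196, 1381, 1297 and 1959 CPM in TuMon1 and 2055, 1900, 2548 and 8612 CPM in MC38 macrophages, and the groups overlapped. In LLC they were 2036, 1640, 1839 and 1620 CPM in TuMon2 and 4585, 6898, 3678 and 2967 CPM in macrophages, with no overlap. The log2 differences were 1.37 ± 0.37 (SE; edgeR adjusted p = 0.00449) and 1.35 ± 0.37 (adjusted p = 0.00485).

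Without macrophage replicate 4 the MC38 values shrank and all 13 genes were still called: COX1 to 0.52, ATP6 to 0.57, ND5 to 0.88 and COX3, another core subunit of complex IV, to 0.43 on the log2 scale. When the 5 libraries with foreign transcripts were left out as well, 10 of 13 were called. When only TuMon1 and the MC38 macrophages were fitted, 6 of 13 were called. Libraries of the MC38 groups overlapped for ND3, COX2, COX3 and ATP6, and none overlapped in LLC. There the calls of ND5 and ATP8 were lost without macrophage replicate 2, and that of ND4L without any 1 of 4 libraries (TuMon2 replicates 2, 3 and 4 and macrophage replicate 2).

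The light-strand gene ND6 moved with the others in this step. It was at 29.9, 41, 29.4 and 39.2 CPM in TuMon1 and 43.0, 47.5, 78.4 and 156 CPM in MC38 macrophages, and at 21.0, 13.2, 30.5 and 24.7 CPM in TuMon2 and 71.9, 77.3, 63.9 and 52.1 CPM in LLC macrophages. The macrophage libraries were all higher. Its log2 difference was 1.22 ± 0.33 (SE; edgeR adjusted p = 0.00411) in MC38 and 1.58 ± 0.34 (adjusted p = 0.000601) in LLC. The 2 ribosomal RNAs of mitochondrial DNA, given as levels only, summed to 973, 1122, 956 and 1411 CPM in TuMon1 and to 585, 505, 661 and 1350 CPM in MC38 macrophages, where 3 of 4 libraries lay below TuMon1. In LLC they summed to 1149, 942, 1257 and 1018 CPM in TuMon2 and to 1027, 1103, 1101 and 1016 CPM in macrophages, within the range of TuMon2. Poly(A) RNA was sequenced, and the part of this selection in the levels of ND6 and of the ribosomal RNAs was not tested.

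Between the macrophages of the tumors, 11 of 13 mitochondrial genes had lower values in MC38, and 2 were called, where 22.9% of all genes were called lower. They were ND5, at -0.79, and ND3, at -0.64 on the log2 scale. This rested on the same library: without MC38 macrophage replicate 4, 11 of 13 were lower in MC38 macrophages, with COX1 at -0.77. With only the macrophages fitted none was called, and without any 1 of 6 other macrophage libraries 0 or 1 was.

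**Figure D2:**
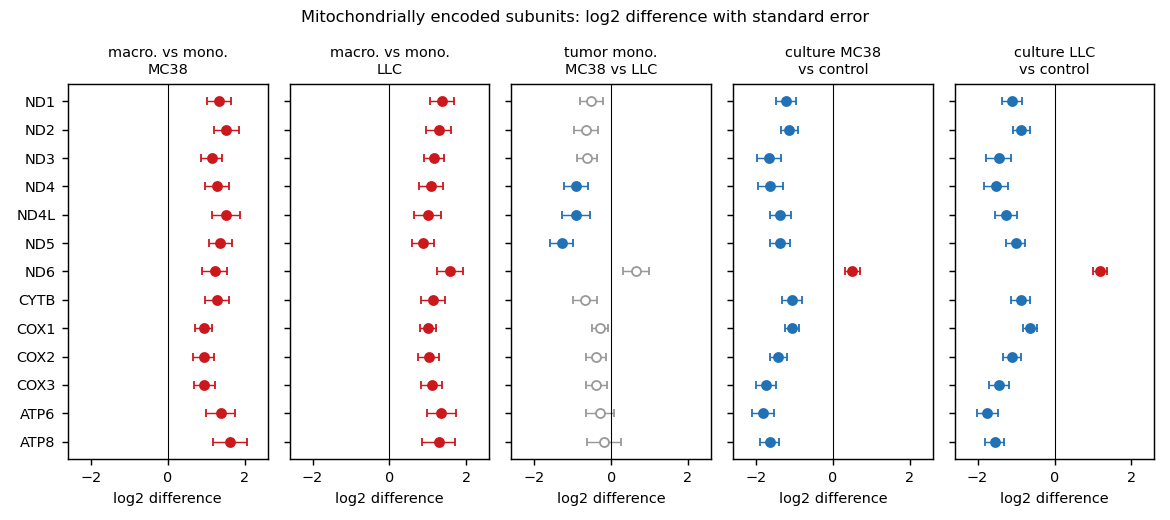
Log2 difference of each of the 13 mitochondrial genes in the comparisons, with SE bars; filled points were called higher (red) or lower (blue) at an adjusted p under 0.05 and open grey points were not. All 13 lie above 0 for macrophages against tumor monocytes, and in culture 12 lie below 0 against control while ND6 lies above.

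In culture the pattern went the other way for the heavy-strand genes. Against untreated cells, 12 of 13 mitochondrial genes fell after each supernatant, where 36.1% of all genes fell with LLC supernatant and 32.5% with MC38 supernatant. The median log2 difference was -1.11 and -1.37, against -0.07 and 0.05 for all genes. Both comparisons use the same control libraries. ATP6 was at 1677, 1227, 1647 and 2015 CPM in control, 513, 492 and 459.9 CPM after LLC supernatant and 438, 288 and 668 CPM after MC38 supernatant. Every treated library was below every control one. The log2 differences were -1.75 ± 0.28 (SE; edgeR adjusted p = 0.000394) and -1.82 ± 0.28 (adjusted p = 0.000318).

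COX1 changed least among the called heavy-strand genes. It was at 5514, 4389, 5336 and 6063 CPM in control, 3662, 3414 and 3172 CPM after LLC supernatant, and 2426, 1898 and 3335 CPM after MC38 supernatant, with no overlap. Its log2 difference was -0.64 ± 0.18 (SE; edgeR adjusted p = 0.00858) and -1.06 ± 0.18 (adjusted p = 0.000425). CYTB, the electron-carrying core of complex III, lay near it at -0.88 and -1.07, and its call with LLC supernatant was lost without LLC supernatant replicate 3.

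ND6 was the exception. It was at 21.1, 20.3, 18.1 and 21.0 CPM in control, 51.5, 49.8 and 35.6 CPM after LLC supernatant and 25.5, 21.9 and 38.5 CPM after MC38 supernatant. Each treated library lay above each control one, and ND6 rose by a log2 difference of 1.18 ± 0.19 (SE; edgeR adjusted p = 0.000317) with LLC supernatant. The call with MC38 supernatant, 0.51 ± 0.19 (adjusted p = 0.0374), was weaker: it was lost with upper quartile scaling (0.47), without the 2 foreign culture libraries (0.27), and without any 1 of 5 libraries. ND5, whose end overlaps that of ND6 on the other strand, fell in the same cells, from 796, 632, 735 and 757 CPM to 374, 372 and 343 CPM after LLC supernatant. The part of poly(A) selection in the ND6 values was not tested.

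Between the supernatants only ND6 was called, lower with MC38 at -0.67 ± 0.20 (SE; edgeR adjusted p = 0.026), where 18.5% of all genes were called lower. The call was lost with the replicate number as a block, with only these groups fitted, and without any 1 of LLC supernatant replicates 1 and 2 and MC38 supernatant replicates 1 and 2. Fibroblast markers in MC38 supernatant replicate 3 stood at 2889 CPM against 2.22 and 1.18 CPM in the other replicates, and that library had the highest mitochondrial sum of its group. Without the foreign libraries 11 of 13 genes were lower with MC38 supernatant, with COX1 at -0.64. The part of the fibroblast RNA in the pooled values was not tested. Macrophage markers moved with the supernatants: all 8 were called higher than in control with each, and their summed level went from 754 CPM to 9452 CPM (LLC) and 7881 CPM (MC38).

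Among the tumor monocytes, 3 of the 13 genes were called lower in TuMon1, where 22.1% of all genes were: ND5, ND4 and ND4L, which are 3 of the 7 complex I genes. ND6, also of complex I, had the higher mean in TuMon1, 34.9 against 22.3 CPM, and was not called. With only the 2 groups fitted, 10 of 13 were called lower. ND5 was at 169, 161, 186 and 236 CPM in TuMon1 and at 484, 489, 441 and 419 CPM in TuMon2, with a wide gap between the groups. Its log2 difference was -1.29 ± 0.30 (SE; edgeR adjusted p = 0.00139), and no alternative removed the call. ND4 was at -0.92 ± 0.31 (adjusted p = 0.021) and lost its call without TuMon1 replicate 1 or 2. ND4L, at -0.92 ± 0.36 (adjusted p = 0.0418), lost it in 10 alternatives. COX1 differed by -0.29 and did not pass. Without TuMon1 replicate 4, whose mitochondrial sum was 15562 CPM against 10198 to 11192 CPM in the others, 5 genes were called.

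Tumor monocytes were also set against the spleen monocytes of mice with the same tumor. TuMon1 was lower than the MC38 spleen monocytes in 7 of 13 genes (ND1, ND2, ND3, ND4, ND4L, ND5 and CYTB), where 36.6% of all genes were called lower. The 7 lay between -0.88 and -1.79 on the log2 scale, while COX1 was at -0.07. White fat transcripts in 3 of the 4 spleen libraries moved with this result. Replicate 4, which lacked them, had the lowest mitochondrial sum (13079 CPM against 15578, 16717 and 18970). With only that spleen library kept, ND5 alone was called. TuMon2 and the LLC spleen monocytes showed no called mitochondrial gene: 0 of 13, with 0 at an unadjusted p under 0.05 and 0 in DESeq2, where 28.6% of all genes were called higher and 34% lower. With only these groups fitted 6 of 13 were called higher in TuMon2, and 2 were without the foreign libraries and MC38 macrophage replicate 4. The difference between the tumors in this step was called for ND5 (-1.67), ND4 (-1.42), CYTB (-1.26) and ND3 (-1.01), where 19.1% of all genes were called lower, for none without the foreign libraries, and for 11 genes with only the groups compared.

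The mitochondrial genes at the top and bottom were nearly always the same. Per kilobase of gene, COX1 had the highest level in 33 of 34 libraries and ATP6 in the other, and ND6 had the lowest in 29 and ATP8 in 5. Between these the order changed: ND5 was at 103 CPM per kilobase in TuMon1, below ND3 (130) and ATP8 (164), and at 400.1 in control culture, above ND2 (370). COX1 held 33% to 47.6% of the counts of the 13 genes. The part of poly(A) selection in the order of the genes was not tested.

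Promoters of many nuclear respiratory genes are known to be bound by the factors NRF1, NRF2 (GABP) and YY1. Promoter sequences from RefSeq (GRCm38.p6, 250 bases before to 50 after the start) were matched by Entrez Gene ID for 76 of the 94 nuclear genes. Short cores of the 3 motifs, none of which contains another, were searched on both strands. CGCATGCGC, a core of the NRF1 site, was found in 10 of 76 (13.2%) against 1.95% of the promoters of 27025 genes: Atp5g2, Atp5k, Atp5l, Cox6a1, Ndufa11, Ndufa8, Ndufaf4, Ndufaf5, Uqcr11 and Uqcrc1. CCGGAAGT, a core of ETS factors such as GABP, was found in 5 (6.58% against 4.31%): Atp5h, Cox8a, Ndufs3, Uqcr11 and Uqcrh. ATGGCGGC, a core of the YY1 site, was found in 7 (9.21% against 2.61%): Ndufa7, Ndufa9, Ndufaf8, Ndufb5, Ndufs4, Ndufs6 and Ndufs7. None of these motifs was found in the windows of Cox7a2l, Ndufc2, Ndufaf7 or Ndufa12. A match is only a match of letters.

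Promoters of 3 genes that differed between groups are shown, 1 each of complex III, complex V and the assembly factors. Each is the 250 bases before the start, on the gene's strand, with the motif in capitals. Uqcrh lies at chr4:116075071-116075320 on the minus strand, and its ETS motif, read here in reverse as ACTTCCGG, ends 3 bases before the start. Atp5g2 lies at chr15:102671048-102671297 on the minus strand. Its NRF1 motif reads on both strands, shifted by 1 base, and the copy nearer the start ends 32 bases before it. Ndufaf4 lies at chr4:24897833-24898082 on the plus strand, with the same doubled motif ending 103 bases before the start.
Uqcrh: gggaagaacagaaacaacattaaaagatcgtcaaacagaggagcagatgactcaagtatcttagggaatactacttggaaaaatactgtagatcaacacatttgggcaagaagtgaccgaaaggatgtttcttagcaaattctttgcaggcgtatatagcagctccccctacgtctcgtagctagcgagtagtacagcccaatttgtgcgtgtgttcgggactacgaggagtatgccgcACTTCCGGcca
Atp5g2: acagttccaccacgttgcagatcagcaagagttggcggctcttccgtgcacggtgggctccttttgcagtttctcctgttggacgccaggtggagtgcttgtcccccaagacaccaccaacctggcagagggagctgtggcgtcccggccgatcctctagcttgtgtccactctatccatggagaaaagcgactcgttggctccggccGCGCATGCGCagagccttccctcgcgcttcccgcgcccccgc
Ndufaf4: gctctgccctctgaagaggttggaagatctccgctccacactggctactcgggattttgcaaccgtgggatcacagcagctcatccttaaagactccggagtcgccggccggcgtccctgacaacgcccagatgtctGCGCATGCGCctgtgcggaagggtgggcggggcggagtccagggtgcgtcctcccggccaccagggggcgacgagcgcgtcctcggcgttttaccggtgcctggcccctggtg

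Between the tumor monocytes the called nuclear genes of complex I were mostly higher in TuMon1, and those of complexes III, IV and V mostly lower. In TuMon1, 14 of 38 complex I genes and 3 of 8 assembly factors were higher than in TuMon2, and 2 and 0 were lower. In complexes III, IV and V most genes were not called, 1 was higher and 10 were lower. The 10 are a share near that of all genes called lower. The 1 higher gene is Cox6a2, and the 14 include Ndufa4l2. Both are rare isoforms, described below, whose calls are not read here. The 38 also hold Ndufa4, today assigned to complex IV. In all, 19 of 90 were called higher and 14 lower, and of all genes 26.8% and 22.1%, with a median log2 difference of 0.05 against 0.06. The shares of members called lie below those of all genes.

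Ndufc2, an accessory subunit in the membrane arm of complex I (7:97400003-97407800), had the largest of these differences above 10 CPM. It was at 57.0, 65.9, 54.6 and 61.0 CPM in TuMon1 and at 34.9, 27.4, 32.3 and 30.2 CPM in TuMon2. The libraries of TuMon1 were all well above those of TuMon2, and the log2 difference was 0.94 ± 0.09 (SE; edgeR adjusted p = 3.52e-09). Ndufa5, an accessory subunit of the matrix arm, differed by 0.68 ± 0.14 (adjusted p = 0.000276). Ndufa12, which docks late in assembly, differed by 0.49 ± 0.13 (adjusted p = 0.0024), and Sdhb, the iron-sulfur subunit of complex II, by 0.42 ± 0.10 (adjusted p = 0.0014).

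Lower in TuMon1 were Cox7a2l, Uqcrh and Atp5d. Cox7a2l, also called SCAF1, has been linked to the joining of complexes III and IV into a supercomplex, which was not measured here. It was at 98.7, 101, 86.6 and 107 CPM in TuMon1 and at 158, 146, 164 and 145 CPM in TuMon2, without overlap, a log2 difference of -0.64 ± 0.08 (SE; edgeR adjusted p = 4.17e-07). Uqcrh, the hinge protein of complex III, was at 104, 101, 93.9 and 119 CPM against 171, 142, 167 and 154 CPM, again without overlap, at -0.60 ± 0.11 (adjusted p = 4.44e-05). Atp5d, a subunit of the rotor stalk of complex V, differed by -0.52 ± 0.10 (adjusted p = 0.000116).

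**Figure D3:**
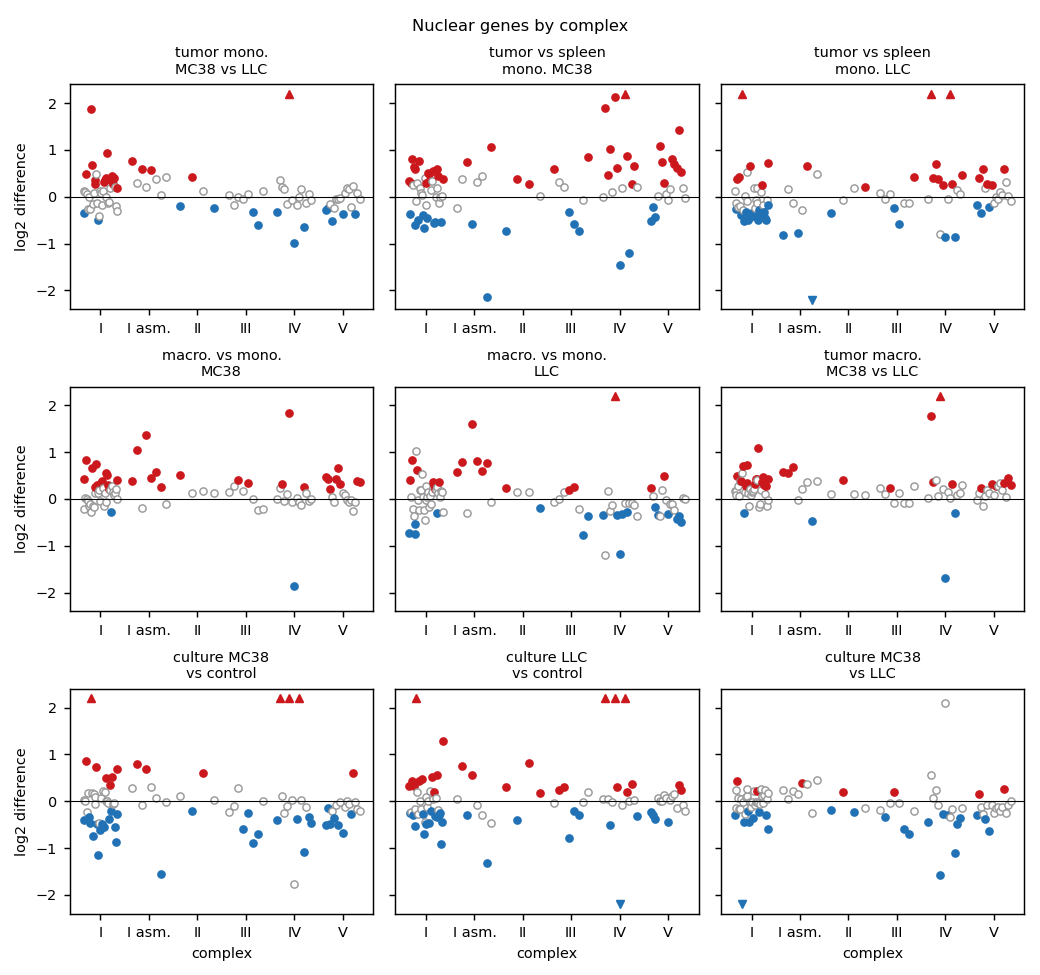
Log2 differences of the nuclear genes by complex in each comparison; each dot is a gene, red if called higher, blue if called lower and grey if not called, and triangles mark values beyond 2.2. In MC38 macrophages against TuMon1 33 genes are red and 2 blue, and in LLC macrophages against TuMon2 19 are red and 18 blue.

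Against spleen monocytes, a part of the nuclear genes was called in the same direction in tumor monocytes of both lines. Ndufaf7, a methyltransferase that modifies a complex I subunit during assembly, was the extreme case. It was at 41, 42.8, 41 and 46.1 CPM in MC38 and at 49.7, 50.4, 46.8 and 45.6 CPM in LLC spleen monocytes. In the tumors it was at 9.95, 8.69, 9.60 and 10.6 CPM in TuMon1 and at 8.72, 9.0, 9.08 and 10.8 CPM in TuMon2. Every tumor library lay far below every spleen library. The deposited counts of Ndufaf7 were not whole numbers in 34 of 34 libraries, so shared reads may have a part in its values. Ndufaf7 fell by 2.13 ± 0.10 on the log2 scale (SE; edgeR adjusted p = 2.15e-15) in MC38 and fell by 2.35 ± 0.10 (adjusted p = 1.02e-15) in LLC.

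Cox7a2l fell with it. The spleen libraries held 231, 225, 196 and 256 CPM (MC38) and 265, 294, 270 and 276 CPM (LLC), all above the tumor libraries given before. The log2 difference was -1.21 ± 0.08 (SE; edgeR adjusted p = 1.68e-12) in MC38 and -0.85 ± 0.08 (adjusted p = 1.37e-09) in LLC. Sdha, the flavoprotein of complex II, also fell, by 0.74 ± 0.08 (adjusted p = 6.56e-09) and by 0.34 ± 0.08 (adjusted p = 0.000378) on the log2 scale. Of the genes that were higher in the tumor, Atp5md, a small subunit that helps complex V form dimers, was at 25.7, 18.7, 20.4 and 20.0 CPM in MC38 spleen monocytes and at 56.7 ± 6.05 CPM (SD, n = 4) in TuMon1, a log2 difference of 1.42 ± 0.14 (SE; edgeR adjusted p = 1.61e-09). In LLC it rose by 0.59.

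Counted over the whole set, TuMon1 had 37 genes higher and 20 lower than MC38 spleen monocytes, where 33.5% and 36.6% of all genes were called. The medians were 0.23 and, for all genes, -0.04. TuMon2 had 22 higher and 27 lower than LLC spleen monocytes (28.6% and 34% of all genes), with a median of -0.06 against -0.05. With upper quartile scaling the splits were 29 against 25 and 10 against 32, and the median of all genes in the MC38 comparison was -0.18. The comparisons share no library. Of the genes called lower, 17 were the same in both (85.0% of the 20 and 63.0% of the 27), among them Atp5a1, Cox7a2l, Ndufa4, Ndufaf7, Ndufb10, Ndufs1, Sdha, Uqcrc1 and Uqcrc2. Of those called higher, 13 were the same (35.1% and 59.1%), among them Cox5a, Cox5b, Cox6b1, Cox7a2 and Uqcrq. The 17 include the rare isoform Cox6b2, and the 13 include Cox4i2 and Cox7a1, described below, whose calls are not read here. Shared calls over all genes were not counted, so no share of all genes stands beside these overlaps.

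Of 15 complex IV genes, 9 were higher and 2 lower in MC38 and 8 and 2 in LLC, beside the shares of all genes just given. In each line these counts include the rare isoforms Cox4i2 and Cox7a1 (higher) and Cox6b2 (lower), described below, whose calls are not read here. Of 17 complex V genes, 8 were higher and 3 lower in MC38, and 5 and 3 in LLC, where the 29.4% called higher is close to that of all genes. Before TMM scaling both sums were lower in the tumor: complex IV held 0.115% of library counts in TuMon1 against 0.129% in spleen and 0.119% in TuMon2 against 0.140%, and complex V 0.201% against 0.261% and 0.218% against 0.250%. Cox5b, a zinc-binding subunit of complex IV, had 151 ± 13.6 CPM in TuMon1 and 74.4 ± 7.55 CPM in MC38 spleen monocytes (SD, n = 4 each). Complex I went 14 against 9 in MC38 and 6 against 16 in LLC. Neutrophil markers were high in the spleen libraries (1826 CPM in MC38 and 4486 CPM in LLC, against 307 and 265 CPM in TuMon1 and TuMon2), and their part in these results was not tested. Atp5e, Atp5j2 and Ndufaf8 lost their calls in the MC38 comparison without the foreign libraries, and Ndufa12 went from 0.82 to 1.45.

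The step from spleen to tumor differed between the lines for 35 nuclear genes, 26 higher in the MC38 step and 9 lower, where 23.8% and 19.1% of all genes were called. Without the foreign libraries 20 were called. Ndufc2 differed most among those above 10 CPM, by 1.04 ± 0.12 (SE; edgeR adjusted p = 3.79e-07): it was called higher in TuMon1 than in MC38 spleen and lower in TuMon2 than in LLC spleen (-0.49 ± 0.09, adjusted p = 2.74e-05). Atp5b and Sdha, at -0.63 and -0.39, and Ndufb7, at 0.72, were not called without the foreign libraries.

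In macrophages against monocytes of the same tumor, 6 of the 8 complex I assembly factors were higher and 0 lower in each tumor, beside 24.8% of all genes called higher in MC38 and 29.2% in LLC. The same 6 genes were called in both: Ndufaf1, Ndufaf2, Ndufaf4, Ndufaf5, Ndufaf6 and Ndufaf7. The other 2, Ndufaf3 and Ndufaf8, had values below 0 in both tumors (-0.19 and -0.29 for Ndufaf3, -0.11 and -0.07 for Ndufaf8) and were not called. Ndufaf4, which acts early in complex I assembly, was at 5.37, 6.19, 4.33 and 5.09 CPM in TuMon1 and 11.7, 11.1, 12.2 and 19.4 CPM in MC38 macrophages. In LLC it was at 5.19, 5.43, 3.63 and 3.95 CPM in TuMon2 and 14.3, 16.0, 12.5 and 12.3 CPM in macrophages. All macrophage libraries were above all monocyte libraries. The log2 difference was 1.37 ± 0.19 (SE; edgeR adjusted p = 1.4e-06) in MC38 and 1.60 ± 0.19 (adjusted p = 2.25e-07) in LLC. The call of Ndufaf5 in MC38 was lost without macrophage replicate 2 or TuMon1 replicate 3.

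Ndufa12 was at 39.5, 40.2, 37.9 and 39.0 CPM in TuMon1 and 69.8, 62.3, 76.2 and 72.2 CPM in MC38 macrophages, and at 30.7, 24.2, 32 and 24.8 CPM in TuMon2 and 50.4, 46.1, 50.8 and 52.3 CPM in LLC macrophages. The step was 0.84 on the log2 scale in each tumor, with no overlap. Atp5g2, 1 of the genes for the membrane ring of complex V, with Atp5g1 and Atp5g3, was at 67.6, 72.4, 63.1 and 71.1 CPM in TuMon1 and 115, 108, 112 and 97.8 CPM in MC38 macrophages, and at 76.5, 67.9, 72.9 and 64.7 CPM in TuMon2 and 106, 84.3, 105 and 97.8 CPM in LLC macrophages. Macrophage libraries were again the higher ones, by 0.66 ± 0.10 (SE; edgeR adjusted p = 4.94e-06) and 0.48 ± 0.10 (adjusted p = 0.000226). Atp5g1 was on average at 52.2 CPM in TuMon1 and 70.2 CPM in MC38 macrophages, and at 53.7 CPM in TuMon2 and 61.2 CPM in LLC macrophages. Atp5g3 was at 96.1 and 120.6 CPM in the same MC38 groups and at 97.4 and 96.2 CPM in the LLC groups.

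**Figure D4:**
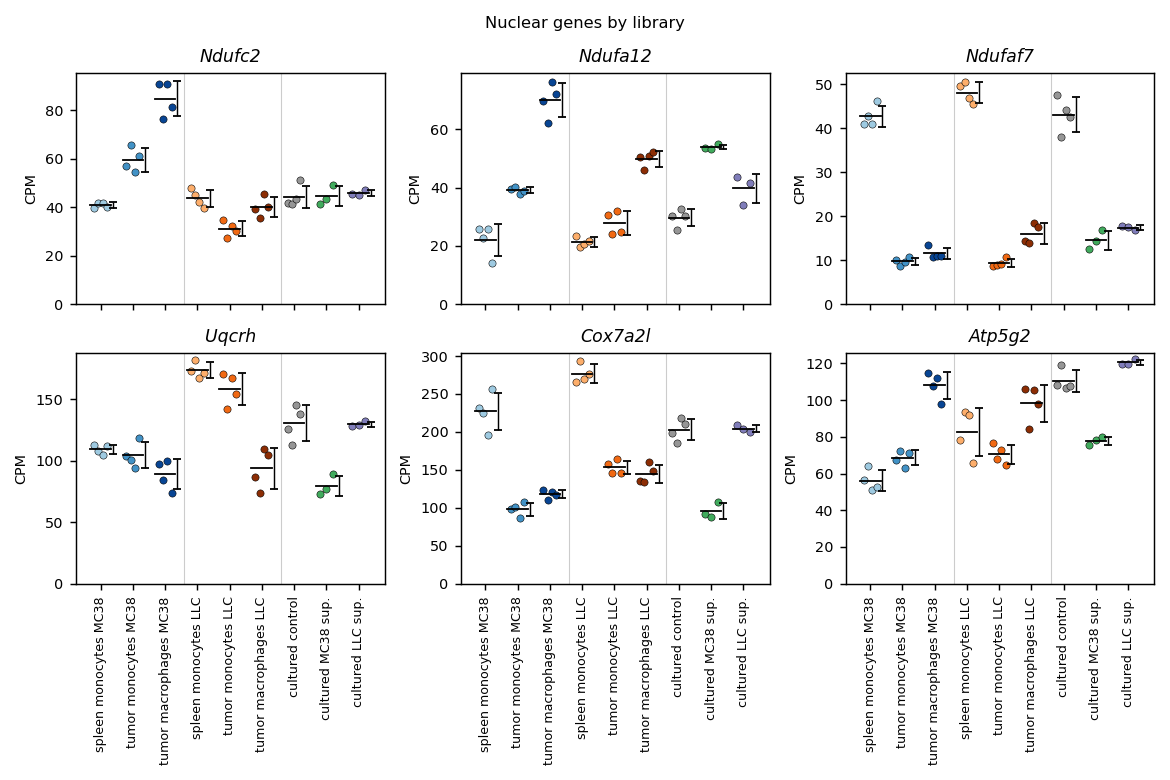
CPM of Ndufc2, Ndufa12, Ndufaf7, Uqcrh, Cox7a2l and Atp5g2 in each library (dots), with the mean (line) and SD (bar) of the 9 groups. Ndufaf7 lies between 38 and 50.4 CPM in spleen monocytes and control culture and at 18.4 CPM or below elsewhere. Its deposited counts were not whole numbers in 34 of 34 libraries.

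Over the whole nuclear set, MC38 macrophages had 33 genes higher and 2 lower than TuMon1, beside 24.8% and 27.9% of all genes, with a median of 0.14 against -0.02. LLC macrophages had 19 higher and 18 lower than TuMon2, beside 29.2% and 26.3%, with a median of -0.01 against 0.06. The LLC split moved with the scaling, to 15 against 21 with RLE size factors and 35 against 5 with upper quartile factors, which moved the median of all genes from 0.06 to 0.21. Of the genes higher in MC38, 17 were also higher in LLC (51.5% of 33 and 89.5% of 19), and these comparisons share no library. The 17 include the rare isoform Cox6a2, described below, whose calls are not read here. Cox6b2, another such isoform, is among the genes lower in each tumor. Shared calls over all genes were not counted, so no share of all genes stands beside this overlap.

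The genes lower in LLC macrophages under each scaling included Uqcrh, Ndufa4 and Ndufa1. Uqcrh was at 86.8, 73.7, 109 and 105 CPM, below every TuMon2 library, at -0.76 ± 0.11 (SE; edgeR adjusted p = 1.58e-06). Ndufa4, named for complex I and today assigned to complex IV, was at 41.9, 31.0, 33.1 and 31.3 CPM against 58.8, 56.9, 56.2 and 60.0 CPM in TuMon2, without overlap, at -0.75 ± 0.11 (adjusted p = 5.13e-06). Ndufa1, a membrane arm subunit, differed by -0.73 ± 0.11 (adjusted p = 4.9e-06). The calls of Cox6b1, Cox4i1, Atp5h, Atp5mpl and Ndufa3 were lost with upper quartile factors.

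The step from monocyte to macrophage differed between the tumors for 8 nuclear genes, 7 higher in MC38 and 1 lower, beside 6.25% and 8.27% of all genes. The count was 13 without TuMon1 replicate 4 and 13 without MC38 macrophage replicate 4, 15 with only the groups compared, 16 with a stricter filter on low counts and 17 in DESeq2. Among the called genes Ndufa4 had the largest difference, 0.64 ± 0.16 (SE; edgeR adjusted p = 0.00732), followed by Uqcrh at 0.53 and Ndufa1 at 0.52. Of the 17 complex V genes, 3 were called, all higher in the MC38 step (Atp5h, Atp5c1 and Atp5pb), beside the 6.25% of all genes. Ndufaf7 was the gene lower in MC38, at -0.52, and its call was lost without any 1 of 4 libraries. The calls of Cox7a2l (0.35) and Ndufa1 were lost without any 1 of 11 and of 3 libraries.

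Between the macrophages, 30 nuclear genes were higher in MC38 and 4 lower, beside 22.4% and 22.9% of all genes, with a median of 0.21 against -0.00. Complex I made up 15 of the 30. Ndufc2 was at 90.9, 76.5, 90.9 and 81.3 CPM in MC38 and 39.5, 35.4, 45.3 and 40.0 CPM in LLC macrophages, far apart, a log2 difference of 1.08 ± 0.09 (SE; edgeR adjusted p = 1.51e-10). It was thus higher in the MC38 group among macrophages and among tumor monocytes. Ndufab1, the mitochondrial acyl carrier protein, differed by 0.72, a call that was lost without LLC macrophage replicate 2. That library had the lowest nuclear sum of its group, 5334 CPM, and the highest mitochondrial sum.

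In culture, Ndufaf7, whose counts were not whole numbers in 34 of 34 libraries, again fell. It was at 47.6, 38, 44.3 and 42.6 CPM in control, 17.8, 17.6 and 16.8 CPM after LLC supernatant and 12.4, 14.5 and 16.8 CPM after MC38 supernatant, with a wide gap to control. The log2 differences were -1.31 ± 0.11 (SE; edgeR adjusted p = 2e-06) and -1.56 ± 0.11 (adjusted p = 5.35e-07). Ndufv1, the NADH-binding subunit of complex I, fell by 0.92 with LLC and by 0.86 with MC38 supernatant on the log2 scale. Uqcrc1, a core subunit of complex III, fell by 0.79 ± 0.06 (adjusted p = 9.93e-07) with LLC and by 0.59 with MC38 supernatant.

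Other subunits rose. Ndufv3, which sits beside Ndufv1, was at 44.6, 36.8, 45.3 and 46.6 CPM in control, 105, 112 and 99.7 CPM after LLC supernatant and 66.7, 70.9 and 72.9 CPM after MC38 supernatant, so that the 3 groups were apart. Its log2 difference was 1.29 ± 0.08 (SE; edgeR adjusted p = 2.58e-07) and 0.69 ± 0.08. Sdhc, a membrane anchor of complex II, was at 72.9, 63.6, 78.1 and 71.8 CPM in control, 128, 127 and 125 CPM after LLC supernatant and 103, 111 and 111 CPM after MC38 supernatant. Both treated groups were above control, by 0.83 ± 0.07 (adjusted p = 1.79e-06) and 0.60 ± 0.07 (adjusted p = 2.28e-05). Within complex II, Sdha was also higher and Sdhb lower with LLC supernatant, at 0.30 and -0.40.

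LLC supernatant gave 25 genes higher and 27 lower than control, beside 32.3% and 36.1% of all genes, and a median of 0.00 against -0.07. MC38 supernatant gave 14 higher and 32 lower, beside 35.4% and 32.5%, and a median of -0.08 against 0.05. Without LLC supernatant replicate 2, 33 genes were called with LLC supernatant in place of 52.

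Set against LLC supernatant, MC38 supernatant gave 7 genes higher and 24 lower, beside 21.6% and 18.5% of all genes, and a median of -0.09 against 0.05. The split was 1 against 32 with RLE, 1 against 36 with upper quartile factors and 3 against 37 in DESeq2. Complex IV had 7 of 15 lower and 0 higher, and the 7 include the rare isoform Cox6a2, whose call is not read here. The count fell to between 12 and 15 without any 1 of 5 libraries (each LLC supernatant library and MC38 supernatant replicates 1 and 2), and was 50 without the foreign libraries.

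Cox7a2l was the strongest of them, at 209, 204 and 200.05 CPM after LLC supernatant and 91.3, 88.1 and 107 CPM after MC38 supernatant. The groups were far apart, at -1.10 ± 0.09 (SE; edgeR adjusted p = 6.95e-06), and the control cells (199, 185, 218 and 210 CPM) lay with LLC supernatant. Uqcrh was at 128, 129 and 132 CPM against 73.1, 77.3 and 88.9 CPM, without overlap, at -0.70 ± 0.10 (adjusted p = 0.000373). Atp5g2 was at 119.7, 119.5 and 122 CPM against 75.6, 78.3 and 79.9 CPM, at -0.63 ± 0.06 (adjusted p = 1.83e-05). The other ring genes differed less on average, Atp5g1 at 55.0 against 51.7 CPM and Atp5g3 at 122 against 115 CPM. Cox4i1, the regulatory subunit of complex IV, differed by -0.45 ± 0.07 (adjusted p = 0.000895).

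Ndufa12 went the other way, at 43.8, 34.1 and 41.5 CPM after LLC supernatant and 53.6, 53.4 and 54.9 CPM after MC38 supernatant, a log2 difference of 0.44 ± 0.11 (SE; edgeR adjusted p = 0.00831). The Sca1+ against Sca1- comparison in tumors uses none of these libraries. Of the 14 genes lower in TuMon1 than in TuMon2, 8 were also lower with MC38 than with LLC supernatant (57.1% of 14 and 33.3% of 24): Atp5a1, Cox4i1, Cox7a2l, Ndufa1, Ndufb11, Sdha, Uqcrfs1 and Uqcrh. Of the 19 higher, 4 were shared (21.1% of 19 and 57.1% of 7): Ndufa12, Ndufaf5, Ndufb9 and Sdhb. Atp5b went opposite ways, lower in TuMon1 and higher with MC38 supernatant. Calls shared over all genes were not counted here either, so these overlaps have no such share beside them. The counts of 19 and 24 include the rare isoforms Cox6a2 and Ndufa4l2, described next. Counts of called nuclear genes in other comparisons also include such isoforms, and their calls are not read here.

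Some complex IV subunits have an isoform for certain tissues or conditions: Cox6a2, Cox7a1 and Cox8b in heart and muscle, Cox6b2 in testis, and Cox4i2 and Ndufa4l2 in low oxygen. All were rare here beside their usual partners, and those that passed the filter did so through the groups where they were highest, so their levels are given here without a fold. Cox7a1 was at 0.182 CPM in control culture, 4.20, 5.58 and 4.66 CPM after LLC supernatant and 3.80, 4.07 and 3.52 CPM after MC38 supernatant, every treated library above control. In mice it was at 1.47 to 1.54 CPM on average in the tumor groups and at 0.208 and 0.218 CPM in the spleen groups. Its partner Cox7a2 was at 48.4 to 88.3 CPM on average in all groups.

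Cox6b2 was highest in control culture, at 8.85, 6.50, 9.05 and 10.6 CPM. It was at 0.590 CPM on average after LLC supernatant, and after MC38 supernatant at 0.407, 0.226 and 6.99 CPM, the last in the library with fibroblast transcripts. Cox6a2 was at 1.95 CPM on average in MC38 macrophages and 1.69 CPM after LLC supernatant, and at 0.00915 CPM in control culture. Cox4i2 was at 0.118 CPM on average in control, at 1.04, 1.15 and 1.75 CPM after LLC supernatant and at 1.81, 2.08 and 1.90 CPM after MC38 supernatant, beside 201 CPM of Cox4i1 in the last group, and each treated library was above control. Ndufa4l2 was at 0.647, 0.898, 1.5 and 0 CPM and Cox8b at 1.35, 1.21, 1.5 and 0 CPM in MC38 spleen monocytes, so both were found in the 3 libraries with white fat transcripts and listed at 0 in the one without. Their source was not tested.

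**Figure D5:**
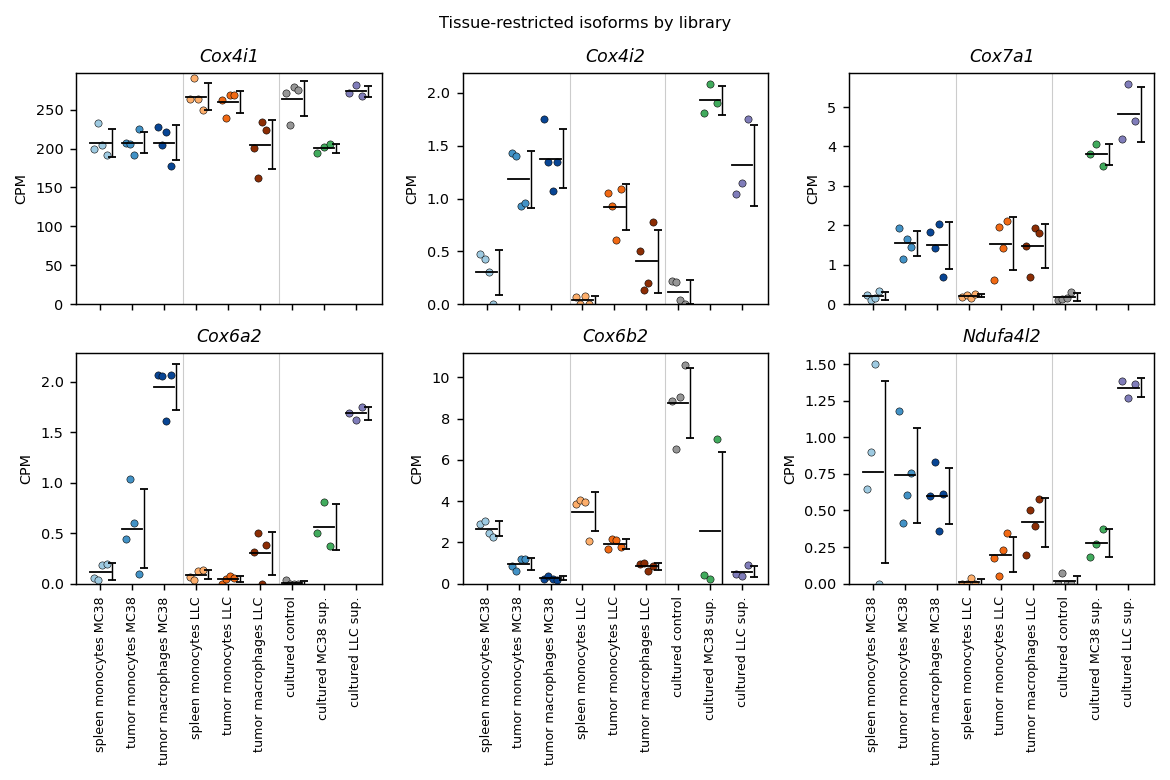
CPM of Cox4i1, Cox4i2, Cox7a1, Cox6a2, Cox6b2 and Ndufa4l2 in each library (dots), with the mean (line) and SD (bar). Cox4i1 lies at 201 to 274 CPM on average in the 9 groups, and the other genes stay at or below 10.6 CPM.

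Genes that maintain, copy and translate mitochondrial DNA were counted in the same comparisons, beside 24.8% of all genes called higher and 27.9% lower in MC38 macrophages, and 29.2% and 26.3% in LLC. Of 25 genes for maintenance and expression of that DNA, 17 were higher and 0 lower in MC38 macrophages than in TuMon1, and 18 and 1 in LLC macrophages than in TuMon2. Of 78 mitochondrial ribosomal proteins 47 were higher and 4 lower in MC38, and 52 and 7 in LLC. Lrpprc, which stabilizes mitochondrial messenger RNA, rose from 33.5 to 48.8 CPM on average in MC38, by 0.54 ± 0.07 (SE; edgeR adjusted p = 6.13e-07), and by 0.74 ± 0.07 (adjusted p = 5.97e-09) in LLC. Trmt10c, a subunit of the enzyme that cuts the long transcripts at transfer RNAs, rose by 0.79 and 1.01. Ppargc1b, a coactivator of mitochondrial genes, was at 7.27 CPM in MC38 macrophages against 4.44 CPM in TuMon1 and at 5.09 CPM in LLC macrophages against 1.17 CPM in TuMon2, and its step was called smaller in MC38, by -1.42 ± 0.36 on the log2 scale (SE; edgeR adjusted p = 0.00872).

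Of 19 genes of the tricarboxylic acid cycle and pyruvate entry 13 were higher and 1 lower in MC38 macrophages, and 9 and 2 in LLC, beside the same shares of all genes (24.8% and 27.9%, and 29.2% and 26.3%). Suclg2, a subunit of the GTP-forming succinyl-CoA ligase, rose by 1.14 and 1.04, and Idh2, the mitochondrial NADP isocitrate dehydrogenase, by 0.80 and 0.61. Of 47 other chain and assembly genes, 17 were higher and 6 lower in MC38, and 26 and 7 in LLC. Cox10, which makes heme for complex IV, rose by 0.57 and 0.85. Among regulators, Hif1a, a factor of the response to low oxygen, was lower in macrophages, at -1.03 and -1.37 on the log2 scale. Counts called over the list of regulators are not given in any comparison, so single genes of it do not stand for the list. Monocyte markers were lower in macrophages, 6 of 6 in each tumor.

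Against the spleen, 5 of the 25 genes for mitochondrial DNA were higher and 12 lower in TuMon1, beside 33.5% and 36.6% of all genes, and 2 higher and 14 lower in TuMon2, beside 28.6% and 34%. Tfam, which packages mitochondrial DNA and starts its transcription, fell from 31.5 to 18.4 CPM on average in MC38 and from 31.6 to 15.1 CPM in LLC, by 0.78 and 1.07 on the log2 scale. Tfb2m, the second initiation factor, fell by 1.18 and 1.34. Of the cycle genes, 0 were higher and 16 of 19 lower in TuMon1, and 3 and 9 in TuMon2. Most MC38 spleen libraries held white fat transcripts, as given above. The list counts against MC38 spleen were not repeated without those libraries, and the part of the fat RNA was not tested. AA467197, also called NMES1 and related to Ndufa4, was at 173 CPM in TuMon1 against 1.98 CPM in its spleen group, and at 97.4 CPM in TuMon2 against 3.09 CPM.

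Between TuMon1 and TuMon2, Sco1, which brings copper to complex IV, was at 30.4 against 10.5 CPM on average, a log2 difference of 1.54 ± 0.10 (SE; edgeR adjusted p = 7.35e-12). Cycs, the cytochrome c gene, was at 226 against 154 CPM, a difference of 0.56. Mitochondrial ribosomal proteins were 35 higher and 3 lower of 78 in TuMon1, and 25 and 3 with MC38 against LLC supernatant, where Cycs was at 136 against 68.0 CPM. Of all genes 26.8% were called higher and 22.1% lower in the tumor comparison and 21.6% and 18.5% in the supernatant one.

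In culture, 12 genes of a list of brakes and by-passes of the chain, which also holds carriers such as Slc25a4 and the antioxidant enzyme Sod2, were tested, and 6 were higher and 3 lower with LLC supernatant, beside 32.3% and 36.1% of all genes, and 5 and 2 with MC38 supernatant, beside 35.4% and 32.5%. Pdk1, which shuts pyruvate dehydrogenase, was at 13.9 CPM in control, 315 CPM after LLC supernatant and 193 CPM after MC38 supernatant. Bnip3, a hypoxia gene that marks mitochondria for removal, was at 14.0, 331 and 185 CPM. The log2 differences were 4.49 and 3.79 for Pdk1 and 4.56 and 3.72 for Bnip3. Ucp2, a carrier of the inner membrane, fell by 1.48 and 2.01 on the log2 scale. Nrf1, the factor whose motif is shown above, fell from 65.6 CPM to 33.6 and 36.3 CPM. Of the 25 genes for mitochondrial DNA 10 were higher and 11 lower with LLC supernatant, and 9 and 8 with MC38 supernatant, where 12 of 13 mitochondrial genes fell with each.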

How the data were processed

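Members and gene lists were chosen with earlier results of these data known. Poly(A) RNA was sequenced, per the labels' protocols, from stranded KAPA libraries amplified by 14 cycles of PCR from 100 ng of RNA. The authors deposited 1 table of expected counts per gene, with Entrez Gene IDs and no scaling, and 14.6% of its values are not whole. The submitters' processing notes name CASAVA 1.8.2 and GRCm38 (mm10) as the build. For the aligner, the counter and its strand setting a statement was not given in the sources used here. Because the planned tests assumed whole counts, the expected counts were rounded. Reads divided between near-identical or overlapping genes can shift single values. Groups came from sample titles, because numbers in the tumor field of MC38 samples run upward. Symbols came from a RefSeq table (GRCm38.p6) for 24375 of 24475 IDs, and promoters from RefSeq.

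Libraries from mice (24) and culture (10) were fitted apart in edgeR 4.0.16 under R 4.3.3, after filterByExpr and with TMM scaling (factors 0.845 to 1.18 and 0.937 to 1.09), robust dispersions (biological coefficient of variation 0.177 and 0.282) and the 2-sided quasi-likelihood test over all groups. The SE is the size of the log2 difference divided by the square root of F. There were 11 comparisons, 2 of them differences between differences. The replicate number was no term in the main fits and was a term in an alternative. No comparison had every same-number correlation over 0.1. In MC38 macrophages and TuMon1 these correlations were 0.0857, 0.128, -0.0332 and 0.154 for replicates 1 to 4. The highest with another number were 0.0291, 0.0916, 0.112 and -0.00434. In LLC macrophages and TuMon2 the same-number values were -0.0576, 0.319, 0.112 and 0.0881, against 0.141, -0.0386, 0.0805 and 0.0918. Whether same-numbered libraries share an animal was not tested. Named were, per comparison, up to 10 called nuclear genes with the largest differences, at least 10 CPM and no overlap, up to 3 called genes per complex, all Sdh and mitochondrial genes, the isoforms with their partners, and up to 4 called genes of each of the 6 other lists. Other members named in counts of shared, lost or motif-bearing genes, the per-library values shown, and Ppargc1b, Tfam, Nrf1 and Cycs where they fall outside that rule, were chosen after their values were seen. Alternatives were RLE and upper quartile scaling, scaling from nuclear genes only, no filter, DESeq2 1.42.0, a stricter filter (5 CPM in 3 libraries), only the groups compared, the replicate number as a term, leaving out each library and leaving out the 5 with foreign transcripts. Leaving these out together with MC38 macrophage replicate 4 was added after seeing the data. The steps were tested on simulated counts. Figures used matplotlib 3.10.9 in Python 3.11.15.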

Additional observations from a re-analysis of the deposited data

Results flagged for a closer look

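Libraries that stood apart from the other 3 of their group were found by Dixon's ratio, the gap to the nearest library over the range of the group, against Dixon's 95% critical value for 4 libraries. Of 213 groups of 4 values, 21 passed, and chance flags about 1 in 20. Among them in MC38 macrophages were the mitochondrial sum (0.887), its ratio to the nuclear sum (0.941), COX1 (0.910), ATP6 (0.903), ND5 (0.946) and Ndufaf4 (0.869), all high in replicate 4, Ndufaf7 (0.901), high in replicate 1, and Cox6a2 (0.960), low in replicate 3. Control culture gave the nuclear sum (0.968), Sdhd (0.845) and Cox4i1 (0.841), all low in replicate 2, and Atp5g2 (0.871), high in replicate 2, the library with heart and muscle transcripts. TuMon1 replicate 4 was high for COX1 (0.83) and Uqcrfs1 (0.918). MC38 spleen monocyte replicate 3 was high for Sdhd (0.912), and LLC spleen monocyte replicate 4 was low for Cox6b2 (0.912). The other 5, all at a ratio of 1, had counts in 1 library only: Cox6a2 and Ndufa4l2 in control culture, Cox8b in TuMon2 and in MC38 macrophages, and Ndufa4l2 in LLC spleen monocytes.

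The change from spleen to tumor monocyte differed between MC38 and LLC (MC38 minus LLC, log2, edgeR's test of the difference) for the mitochondrial genes ND5 (-1.67), ND4 (-1.42), CYTB (-1.26) and ND3 (-1.01), for the complex I genes Ndufc2 (1.04), Ndufaf3 (0.88), Ndufs6 (0.76) and Ndufb7 (0.72), for Sdhb (0.46), Sdha (-0.39) and Uqcrfs1 (-0.61), for Cox7a2 (0.60) and Cox7a2l (-0.36), and for Atp5md (0.84) and Atp5b (-0.63). The fitted values of the rare isoforms Ndufa4l2 (-3.53) and Cox4i2 (-2.49) passed too, but with groups at or near 0 CPM they depend on the prior count and give no size, and their sign turned without the foreign libraries. White fat transcripts marked 3 of the 4 MC38 spleen libraries, and their part in these values was not tested beyond leaving the libraries out. The change from tumor monocyte to macrophage differed for Ndufa4 (0.64), Uqcrh (0.53), Ndufa1 (0.52), Atp5h (0.45), Atp5c1 (0.39), Cox7a2l (0.35), Atp5pb (0.35) and Ndufaf7 (-0.52).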

How the results depend on the processing

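Depth limits the rare isoforms, which lie at a few counts per library, and n of 3 or 4 limits the rest. Counts below are genes called; the main counts stand in the report, and the cause of each shift was not tested. With only the groups compared, mitochondrial calls were 10 for TuMon1 against TuMon2, 6 for TuMon2 against spleen, 6 for MC38 macrophages against TuMon1, 0 between macrophages, 11 for the difference in the spleen step and 0 between supernatants, and nuclear calls for the difference in the macrophage step were 15. Without the foreign libraries mitochondrial calls were 1 for TuMon1 against spleen, 1 between macrophages, 0 for the spleen step and 11 between supernatants, and nuclear calls 20 for the spleen step and 50 between supernatants. Without MC38 macrophage replicate 4 as well, they were 9 for TuMon1 against TuMon2, 4 and 2 for TuMon1 and TuMon2 against spleen, 11 between macrophages and 2 for the spleen step, with 17 nuclear calls for the macrophage step. Between macrophages the mitochondrial calls were 1 with RLE, with upper quartile factors, with nuclear scaling and with no filter, and between supernatants 2 with RLE and 2 in DESeq2. Nuclear calls were 19 between supernatants with no filter, and for the macrophage step 16 with the stricter filter and 17 in DESeq2. The nuclear sum was 7158 CPM (RLE) and 7113 CPM (upper quartile) in LLC supernatant cells and 6202 CPM (upper quartile) in TuMon2. Signs turned without the foreign libraries, and also without MC38 macrophage replicate 4, for Ndufa4l2 (3.43 and 3.41) and Cox4i2 (3.12 and 3.10) in the spleen step, fitted values of rare isoforms that give no size. Same-numbered libraries share no stated source. With a replicate block the mitochondrial calls were 0 between macrophages and 0 between supernatants, and other counts stayed within 1.5 times. Leaving out each library gave mitochondrial calls of 1 to 5 for TuMon1 against TuMon2, 0 to 11 between macrophages, 2 to 5 for the spleen step and 0 to 9 between supernatants, and nuclear calls of 6 to 13 for the macrophage step, 12 to 25 between supernatants and 33 to 65 for LLC supernatant against control. Of 573 single-gene results, calls were lost for 20 with upper quartile factors, 11 with RLE, 5 in DESeq2 and 15 with the replicate block.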
